A study of Mus musculus with 8 samples.

Results

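The 33 genes described here encode the proteins that bring pyruvate into the mitochondrion, convert it to acetyl-CoA, turn the citric acid cycle and carry its reducing equivalents in the malate-aspartate shuttle. They were chosen by name, and all 33 were among the 22173 genes of the deposited table and passed the filter on low counts. Levels were measured by RNA sequencing of skeletal muscle from C57BL/6 mice, an inbred strain, with diet-induced obesity (DIO). The liraglutide group received liraglutide, an agonist of the GLP-1 receptor, by subcutaneous injection at 0.2 mg/kg daily for 9 weeks. The model group received normal saline. Both groups were 24 weeks old at assignment and held 8 mice each, and muscle of 4 mice per group was sequenced. No lean group was analysed here, the muscle sampled was not named, and pair feeding was not described, so an effect of the drug and of any change in body weight cannot be told apart. The comparison addresses how the muscle transcriptome of obese mice differs between liraglutide and saline treatment.

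Pyruvate made by glycolysis crosses the inner mitochondrial membrane through a carrier built from MPC1 and MPC2. The pyruvate dehydrogenase complex then commits it to oxidation, and this complex is switched off by 4 kinases and on by 2 phosphatases. Muscle raises the kinase PDK4 in fasting and in insulin-resistant states, which spares glucose while fat is burnt. In the cycle itself, the subunits of each enzyme are nuclear-encoded, and succinate dehydrogenase doubles as complex II of the respiratory chain.

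Library totals spanned 17133476 to 18244579 counts with liraglutide and 15033631 to 16622716 counts for model mice. All libraries were dominated by fast fibre transcripts, with 9 fast fibre markers summing to 165000 to 180000 CPM (counts relative to the library total) with liraglutide and 165000 to 169000 CPM for model mice. Markers of other cells moved between the groups. Of the fast fibre markers 5 of 9 were called higher (Tnni2, Tnnc2, Mylpf, Atp2a1 and Actn3), and their part in the results that follow was not tested. The 12 adipocyte markers summed to 1390 to 1880 CPM with liraglutide and 1990 to 2980 CPM in the model group, and 8 of them were called lower. The 8 epididymis markers summed to 0.452 to 2.06 CPM in liraglutide libraries 1, 3 and 4, to 146 CPM in liraglutide 2, where Crisp1 made up most of it, and to 33.4 to 53.6 CPM in the model libraries. Of the 7 epididymis markers that passed the count filter, 6 were called lower with liraglutide and Crisp1 was not called. Of the fibroblast, endothelial and macrophage markers, 1 of 7, 0 of 5 and 0 of 5 were called lower in edgeR, with 5, 2 and 3 lower at an unadjusted p under 0.05 and 3, 0 and 1 called lower by DESeq2. Deposited levels are FPKM, fragments scaled to gene length and to the library total. Fold changes are from edgeR with TMM scaling, which sets the liraglutide group higher by 0.0764 on the log2 scale than the library totals alone would.

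Muscle of liraglutide-treated mice had higher transcript levels of both carrier subunits, of most cycle enzymes and of the shuttle enzymes, whereas none of the pyruvate dehydrogenase subunits passed the test. A gene counted as called at an adjusted p under 0.05 in edgeR's quasi-likelihood test, adjusted by Benjamini-Hochberg over 12963 genes. Of the 33 genes, 17 were called higher and 0 lower, against 5.45% of all genes tested called higher, 4.83% called lower and 10.3% called in either direction. Calls were made for 2 of 2 carrier subunits, 0 of 5 pyruvate dehydrogenase subunits, 1 of 4 kinases, 0 of 2 phosphatases, the carboxylase not at all, 11 of 16 cycle enzymes and 3 of 3 shuttle enzymes. At an unadjusted p under 0.05, 18 were higher and 2 lower. DESeq2 called 18 higher and 0 lower, and limma on log2(FPKM + 1) called 8 higher and 1 lower. The changes were small: the median log2 fold change over the 33 genes was 0.15, against -0.01 over all genes tested, and the range was -0.42 to 0.37. In deposited FPKM the groups did not overlap for 14 genes that were higher and 3 that were lower with liraglutide, where 4.91% and 15.4% of all genes tested did not overlap in those directions and 20.3% in either.

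**Figure D1:**
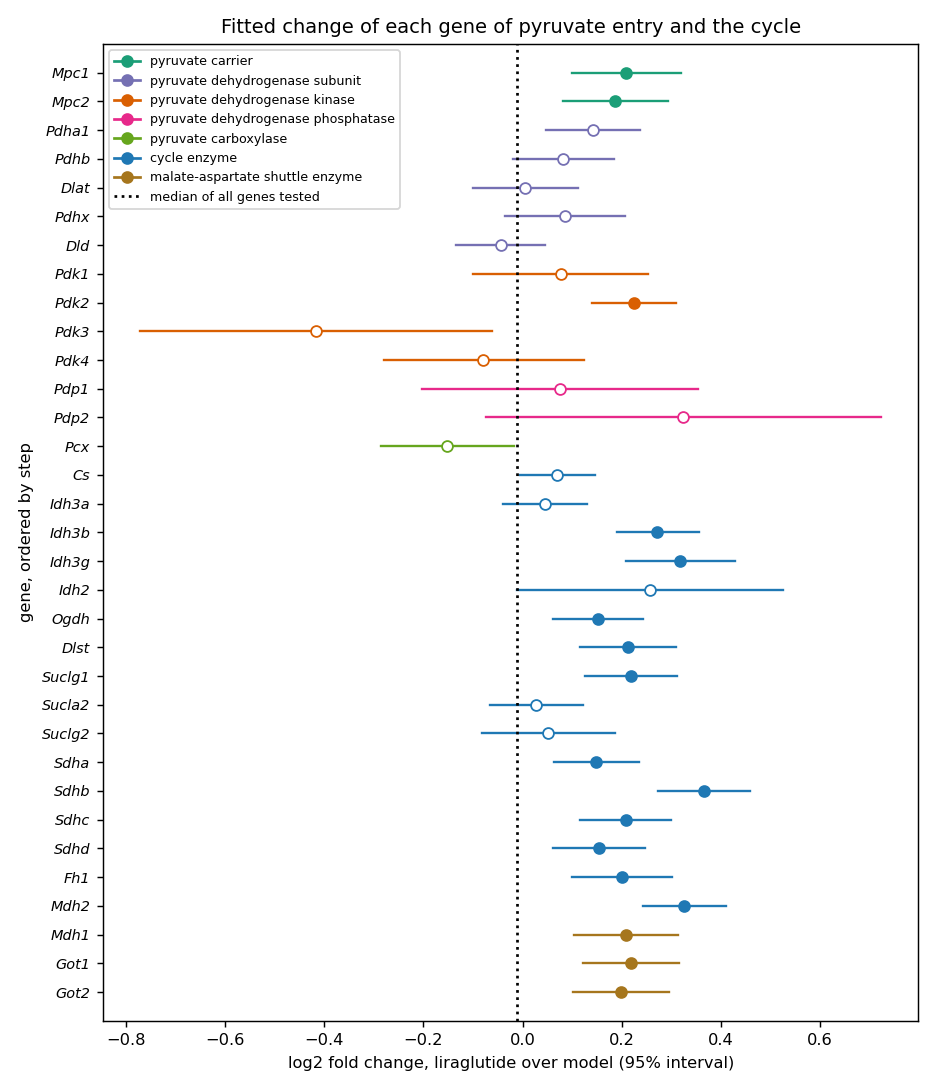
Fitted log2 fold change of liraglutide over model for the 33 genes in pathway order, with 95% intervals; filled points passed an adjusted p of 0.05 and open points did not, and the dotted line is the median of all genes tested. Filled points cluster between 0.15 and 0.37 among carriers, cycle enzymes, shuttle enzymes and Pdk2, while the 5 pyruvate dehydrogenase subunits are all open.

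The number called depended on scaling and on single libraries. With raw library sizes 5 genes were called higher and 1 lower (Pcx), with quantile-normalized FPKM in limma 2 higher and 2 lower (Dld and Cs), with a gene length offset 10 higher, and without model 1 or model 2 only 8 and 9 higher. Over all genes tested 1333 were called in either direction, against 1579 with raw library sizes, 776 under quantile normalization and 906 with a length offset. Sdhb and Mdh2 were called higher in all 21 alternatives run.

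Both subunits of the pyruvate carrier rose. Mpc1 had 88.9, 90, 88 and 84.4 FPKM in the liraglutide libraries, against 78, 83.3, 82.4 and 76.5 FPKM in the model libraries. Every liraglutide library was above every model library. Its log2 fold change was 0.21 ± 0.049 (SE, 4 libraries a group, edgeR adjusted p = 0.0257). Mpc2 had 177, 175, 166 and 175 FPKM with liraglutide, against 151, 163, 158 and 169 FPKM in the model group. Here liraglutide 3 lay below model 4, so the groups overlapped (edgeR log2 fold change 0.19 ± 0.047 SE, adjusted p = 0.0359). The ratio of Mpc2 to Mpc1 within a library was 1.98 ± 0.084 with liraglutide and 2.01 ± 0.14 in the model group (SD, n = 4 each), and these ranges overlapped. Leaving out liraglutide 1, liraglutide 3, model 1 or model 4 ended the call of Mpc1 (edgeR adjusted p up to 0.0778), and the call of Mpc2 ended without any library but liraglutide 3 or model 4 (up to 0.0957). With a gene length offset neither carrier was called (edgeR adjusted p = 0.0744 for Mpc1 and 0.542 for Mpc2), and Mpc2, at 806 bases, is the shortest of the 33 genes.

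None of the pyruvate dehydrogenase subunits passed in edgeR. The E1 alpha subunit Pdha1, which carries the phosphorylation sites, came nearest: it had 267, 275, 263 and 260 FPKM with liraglutide, against 247, 242, 267 and 261 FPKM in the model group. The groups overlapped, with model 3 and model 4 inside the liraglutide range (log2 fold change 0.14, 95% interval 0.048 to 0.24, edgeR adjusted p = 0.0629). It was the 1 subunit of 5 with an unadjusted p under 0.05, and DESeq2 called it (adjusted p = 0.0266), as did edgeR with a length and GC offset (0.0268). The E1 beta subunit Pdhb stood at 141 ± 2.78 FPKM with liraglutide and 140 ± 7.27 FPKM in the model group (SD, n = 4). Dlat, the acetyl-transferring E2 core, stood at 43 ± 2.03 against 45.2 ± 1.72 FPKM, with a 95% interval of -0.099 to 0.11 for its log2 fold change. Pdhx, the protein that tethers E3 to the core, stood at 29.3 ± 1.47 with liraglutide against 29.1 ± 1.22 FPKM in the model group. Dld, the E3 subunit that this complex shares with the 2-oxoglutarate dehydrogenase complex, had 106 to 108 FPKM with liraglutide and 114 to 122 FPKM in the model group. Those ranges did not overlap, yet after TMM scaling the log2 fold change was -0.04 (95% interval -0.13 to 0.046, edgeR adjusted p = 0.53). The median over the 5 subunits was 0.08, and it was 0.0062 with raw library sizes.

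Of the 4 kinases, Pdk2 alone passed the test. Pdk4, the most abundant of the 4, had 677, 628, 809 and 825 FPKM in the liraglutide libraries, against 760, 823, 828 and 862 FPKM in the model libraries. Liraglutide 1 and liraglutide 2 lay below every model library and the other liraglutide libraries lay among them. The log2 fold change was -0.08 (95% interval -0.28 to 0.12, edgeR adjusted p = 0.634), so neither a fall of up to 0.28 nor a rise of up to 0.12 lies outside the interval. Pdk2, the other main kinase of this muscle, rose: it had 239, 246, 233 and 231 FPKM with liraglutide, against 221, 209, 217 and 209 FPKM in the model group. No liraglutide library was as low as any model library (log2 fold change 0.23 ± 0.038 SE, edgeR adjusted p = 0.00745). This call held on leaving out each library in turn and ended with a length and GC offset (edgeR adjusted p = 0.0511) and under quantile normalization (limma, 0.449). Pdk1, which is induced by hypoxia, had 14.1, 14.2, 17.3 and 15.3 FPKM with liraglutide, against 14.5, 14.7, 16.2 and 15.3 FPKM in the model group, and these overlapped. Pdk3 was the least abundant of the 33 genes, with 48, 44, 41 and 38 counts with liraglutide and 64, 51, 52 and 51 counts in the model group. Its groups did not overlap in FPKM, at 0.193 to 0.239 against 0.267 to 0.351 (log2 fold change -0.42, 95% interval -0.77 to -0.062, edgeR adjusted p = 0.129).

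Within each library, Pdk4 made up 70.7% to 77% of the summed kinase FPKM with liraglutide and 76.3% to 79.3% in the model group. Pdk2 made up 21.6% to 27.7% with liraglutide and 19.3% to 22.2% in the model group. Both pairs of ranges overlapped. The Pdk4 to Pdk2 ratio was 2.83, 2.55, 3.48 and 3.56 with liraglutide, against 3.44, 3.95, 3.82 and 4.12 in the model group. Model 1 lay among the liraglutide libraries, so these groups overlapped too. The phosphatases, which switch the complex back on, were far less abundant. Pdp1, the calcium-sensitive form, stood at 11.5 ± 2.27 FPKM with liraglutide and 11.5 ± 1.2 FPKM in the model group. Pdp2 stood at 1.53 ± 0.324 against 1.29 ± 0.206 FPKM (SD, n = 4 each). The 95% intervals of their log2 fold changes, -0.20 to 0.35 and -0.07 to 0.72, were wide, and 0 of the 2 had an unadjusted p under 0.05, a DESeq2 call or a limma call.

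Carriers and kinases were also set against the cycle enzymes within each library. The geometric mean FPKM of the 16 cycle enzymes was 185, 189, 186 and 188 with liraglutide, against 170, 169, 177 and 176 in the model group. Every liraglutide library was above every model library. The carrier mean divided by this cycle mean was 0.678, 0.663, 0.648 and 0.648 with liraglutide, against 0.639, 0.688, 0.643 and 0.648 in the model group, which overlap throughout. The kinase sum divided by the cycle mean was 5.02, 4.69, 5.69 and 5.71 with liraglutide, against 5.85, 6.18, 5.99 and 6.19 in the model group. All 4 liraglutide libraries were below all 4 model libraries, with means of 5.28 ± 0.506 and 6.05 ± 0.163 (SD, n = 4 each). Most of this sum was Pdk4 (70.7% to 77% with liraglutide, 76.3% to 79.3% in the model group), which was not called. Pdk2, the kinase that was called, was higher. A ratio within a library does not change with a single scaling factor per library, but it does change with quantile normalization or an offset for length or GC content. It shows unequal change in the deposited values and not which part changed, and no test was run on it because the genes were chosen with earlier results known.

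**Figure D2:**
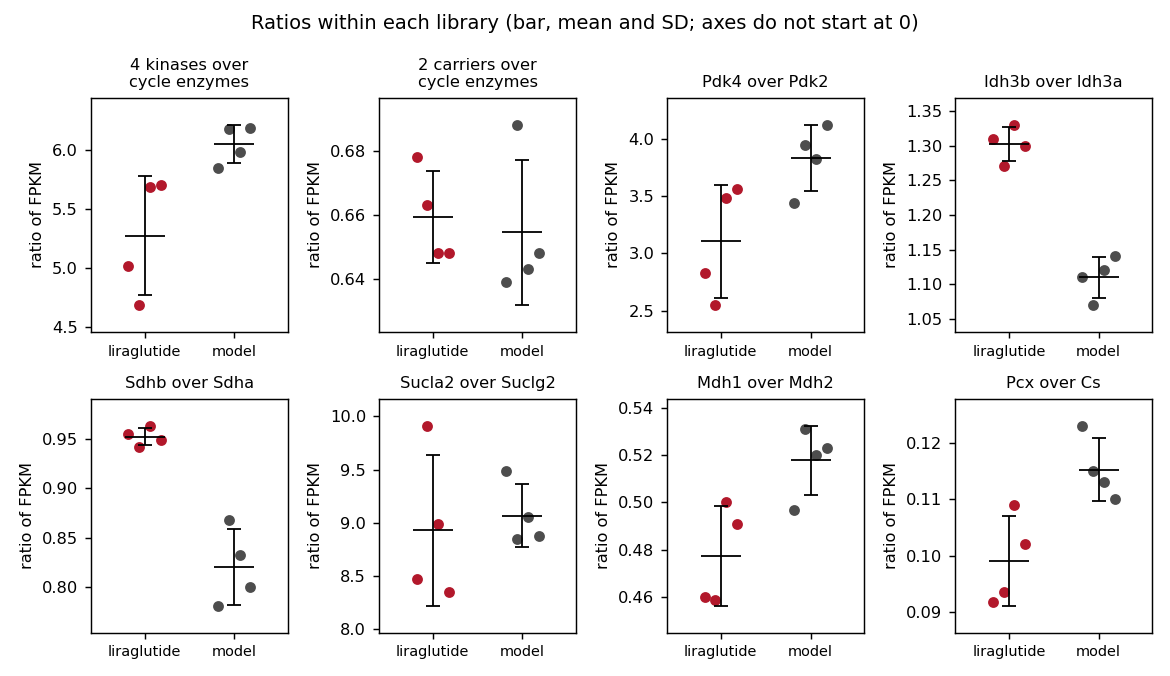
Ratios of FPKM within each library for the liraglutide and model groups, 4 points each, with the mean and SD; the axes do not start at 0. The kinase sum over the cycle enzymes, Idh3b over Idh3a, Sdhb over Sdha and Pcx over Cs separate the groups. The gap is narrow for the kinase ratio (4.69 to 5.71 against 5.85 to 6.19) and for Pcx over Cs (0.0918 to 0.109 against 0.11 to 0.123). Carriers over cycle enzymes (0.648 to 0.678 against 0.639 to 0.688) and Sucla2 over Suclg2 do not separate the groups.

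Pyruvate carboxylase, Pcx, makes oxaloacetate from pyruvate and is abundant in fat. It had 27.9, 28.9, 31.9 and 31.3 FPKM with liraglutide, against 37, 34.2, 35.3 and 34 FPKM in the model group. The groups did not overlap, but it was not called (log2 fold change -0.15, 95% interval -0.29 to -0.018, unadjusted p = 0.0301, edgeR adjusted p = 0.141). It was called lower with raw library sizes (adjusted p = 0.0282) and by limma on log2(FPKM + 1) (0.0315), and not by DESeq2. Summed adipocyte markers moved the same way, at 1453, 1390, 1881 and 1812 CPM in liraglutide libraries 1 to 4 and 2978, 2413, 1990 and 2609 CPM in model libraries 1 to 4. Model 1 was highest and liraglutide 1 and 2 were lowest in both measures. Liraglutide 4 and then liraglutide 3 came next in both measures, below every model library. The order was not shared throughout: model 3 had the lowest marker sum of the model group but more Pcx than model 2 and model 4. Liraglutide 1 had a higher marker sum than liraglutide 2 but less Pcx. The part of fat cells in the Pcx level was not tested, and in bulk tissue fewer cells of a type and less RNA per cell cannot be told apart.

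**Figure D3:**
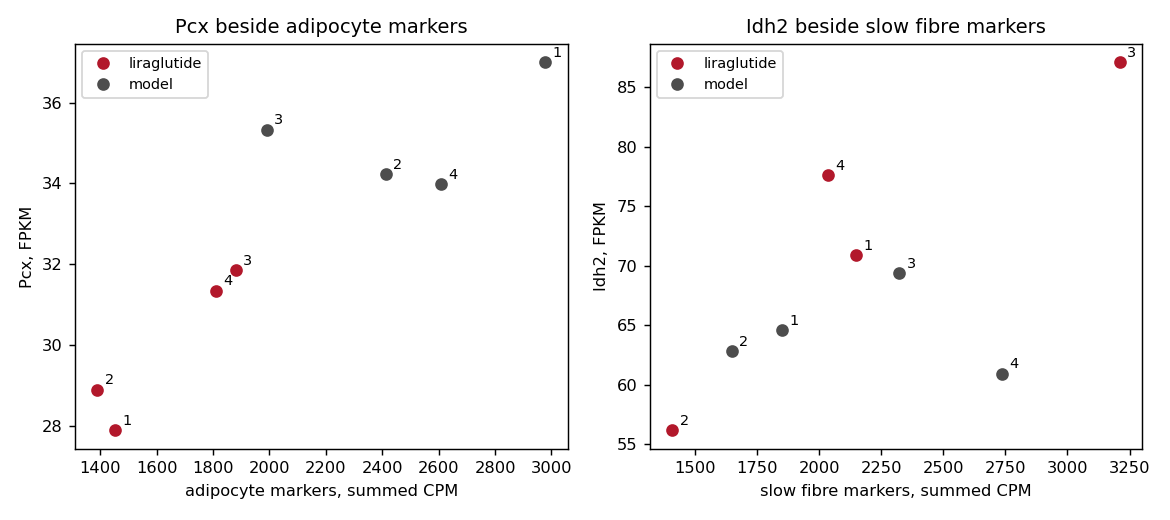
Left, Pcx in FPKM against the summed CPM of 12 adipocyte markers; right, Idh2 in FPKM against the summed CPM of 7 slow fibre markers (without Myh2), 1 point per library, numbered by replicate. In the left plot the 4 liraglutide libraries lie at the lower left, but model 3 has the lowest marker sum of the model group and not its lowest Pcx. In the right plot liraglutide 2 is lowest and liraglutide 3 highest on both axes, but model 4 has the highest marker sum of the model group and its lowest Idh2.

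In the cycle, the fitted change was positive for all 16 enzymes and 11 were called, but the sign held for 12 of 16 with raw library sizes (Cs, Idh3a, Sucla2 and Suclg2 turned negative) and for 10 of 16 under quantile normalization. Citrate synthase, Cs, which opens the cycle and is often taken as a measure of mitochondrial content, stood at 303 ± 7.25 FPKM with liraglutide and 304 ± 6.91 FPKM in the model group (SD, n = 4). Its log2 fold change was 0.07 (95% interval -0.0062 to 0.15, edgeR adjusted p = 0.224), and under quantile normalization it was called lower (limma, adjusted p = 0.0472).

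The subunits of the NAD-dependent isocitrate dehydrogenase differed among themselves. Idh3b, a regulatory subunit, had 309, 323, 307 and 318 FPKM with liraglutide, against 269, 268, 279 and 282 FPKM in the model group. The gap between the groups exceeded the range within either (log2 fold change 0.27 ± 0.037 SE, edgeR adjusted p = 0.00293). Idh3g, the other regulatory subunit, had 220, 239, 231 and 211 FPKM with liraglutide, against 196, 182, 191 and 192 FPKM in the model group (edgeR log2 fold change 0.32 ± 0.05 SE, adjusted p = 0.00538). The catalytic subunit Idh3a did not pass, with 236, 255, 231 and 244 FPKM against 241, 250, 248 and 247 FPKM (95% interval of the log2 fold change -0.04 to 0.13, edgeR adjusted p = 0.49). The Idh3b to Idh3a ratio was 1.31, 1.27, 1.33 and 1.3 with liraglutide, against 1.11, 1.07, 1.12 and 1.14 in the model group. All liraglutide ratios were above all model ratios. The genes differ in length, at 1520 bases for Idh3b, 1444 for Idh3g and 2404 for Idh3a. With a length offset the log2 fold changes were 0.23, 0.27 and 0.036, and the calls of Idh3b and Idh3g held (edgeR adjusted p = 0.013 and 0.0128); under quantile normalization they ended (limma, 0.158 and 0.0695).

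Idh2, the NADP-dependent mitochondrial isocitrate dehydrogenase, varied most of the cycle enzymes between liraglutide libraries, in proportion to its level. It had 70.9, 56.2, 87.1 and 77.6 FPKM with liraglutide, against 64.6, 62.8, 69.4 and 60.9 FPKM in the model group. Liraglutide 2 lay below every model library and the other 3 lay above. It did not pass (log2 fold change 0.26, 95% interval -0.01 to 0.53, edgeR adjusted p = 0.204), and without liraglutide 2 it was called higher (0.38, adjusted p = 0.0239). Without liraglutide 3 the log2 fold change was 0.16 (edgeR adjusted p = 0.39). The 7 slow fibre markers (Myh7, Tnni1, Tnnt1, Tnnc1, Myl2, Myl3 and Atp2a2) summed to 2149, 1408, 3212 and 2034 CPM in liraglutide libraries 1 to 4, against 1849, 1649, 2322 and 2736 CPM in model libraries 1 to 4. Liraglutide 2 was lowest and liraglutide 3 highest in both measures. Model 2, model 1 and model 3 rose in that order in both measures. Model 4 departed, with the highest slow fibre sum of the model group and its lowest Idh2. Liraglutide 1 had a higher sum than liraglutide 4 but less Idh2. Myh2, the myosin of fast oxidative fibres, was at 3087, 2386, 3181 and 3597 CPM with liraglutide, against 2688, 2539, 2827 and 2587 CPM in the model group (unadjusted p = 0.0254, edgeR adjusted p = 0.127). Of the 7 slow fibre markers 0 were called in edgeR, 0 had an unadjusted p under 0.05 and DESeq2 called 0, and the part of fibre types in the Idh2 level was not tested.

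The 2-oxoglutarate dehydrogenase complex showed a like unevenness. Its E2 core Dlst rose, at 112, 112, 113 and 114 FPKM with liraglutide against 101, 97.4, 108 and 104 FPKM in the model group. The groups did not overlap (log2 fold change 0.21 ± 0.044 SE, edgeR adjusted p = 0.0159). Its E1 subunit Ogdh, at 179 ± 4.26 FPKM with liraglutide and 169 ± 5.87 FPKM in the model group, was called at the margin (edgeR adjusted p = 0.0432), and the groups overlapped. Dld, described above, completes the complex and was not called. The call of Ogdh ended without any library but liraglutide 2 (edgeR adjusted p up to 0.117), and the call of Dlst without model 1 or model 2 (up to 0.0525). Ogdh, one of the longest of these genes at 7547 bases, had the larger log2 fold change with a length offset, 0.26 (edgeR adjusted p = 0.01), than without it, 0.15, and -0.013 under quantile normalization.

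Succinyl-CoA ligase pairs a shared alpha subunit, Suclg1, with either of a pair of beta subunits: Sucla2 in the ATP-forming enzyme and Suclg2 in the GTP-forming one. Suclg1 rose, with 193, 209, 188 and 191 FPKM with liraglutide against 177, 173, 176 and 180 FPKM in the model group (log2 fold change 0.22 ± 0.042 SE, edgeR adjusted p = 0.0118). Its groups did not overlap, and the call ended with a length offset (edgeR adjusted p = 0.0511). The beta subunits did not pass. Sucla2 stood at 172 ± 8.14 FPKM with liraglutide and 178 ± 5.3 FPKM in the model group, and Suclg2 at 19.3 ± 1.16 and 19.7 ± 1.04 FPKM (SD, n = 4 each). The 95% intervals of their log2 fold changes were -0.067 to 0.12 and -0.081 to 0.19. Sucla2 exceeded Suclg2 8.93 ± 0.712 times with liraglutide and 9.07 ± 0.296 times in the model group, so the ATP-forming subunit predominated in both.

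**Figure D4:**
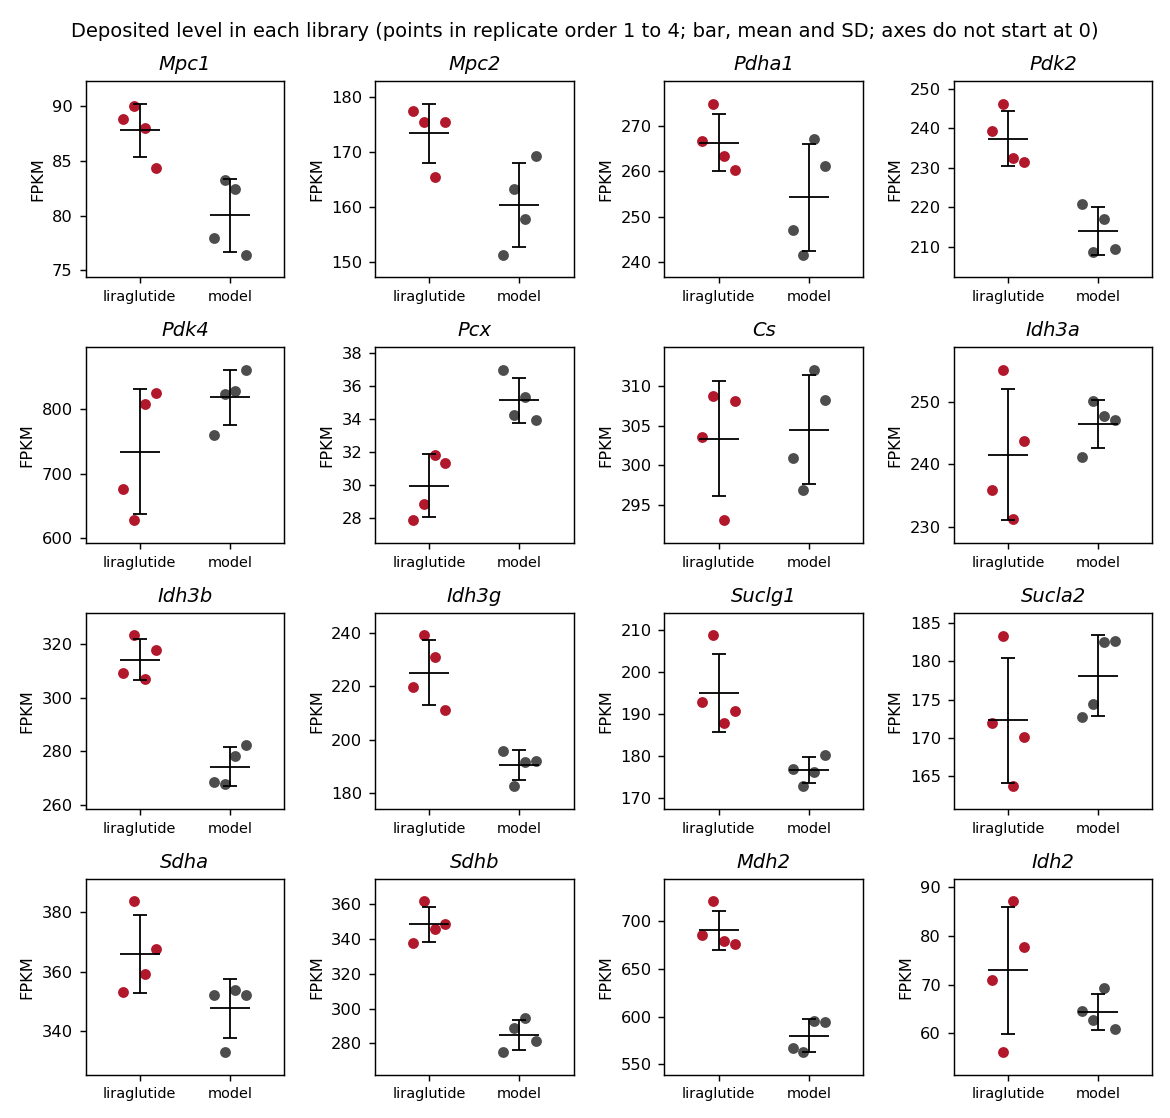
Deposited FPKM of 16 of the genes in each library, liraglutide left and model right, 4 points each with the mean and SD; the axes do not start at 0. Idh3b, Idh3g, Suclg1, Sdhb, Mdh2, Mpc1 and Pdk2 separate upward and Pcx separates downward, while Cs, Idh3a, Sucla2 and Pdk4 overlap and Idh2 spans 56.2 to 87.1 FPKM within the liraglutide group.

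All 4 subunits of succinate dehydrogenase were called higher, to unequal degrees. Sdhb (Entrez gene 67680), the iron-sulfur subunit, had the largest increase of the 33 genes. It had 337, 362, 346 and 349 FPKM with liraglutide, against 275, 289, 294 and 282 FPKM in the model group, with no overlap (1.29-fold, log2 fold change 0.37 ± 0.041 SE, edgeR adjusted p = 0.00172). Sdhc, a membrane anchor, had 210, 210, 213 and 206 FPKM with liraglutide against 185, 193, 190 and 198 FPKM in the model group (edgeR adjusted p = 0.014). Sdhd, the other anchor, stood at 179 ± 6.22 FPKM with liraglutide and 169 ± 4.5 FPKM in the model group (SD, n = 4, edgeR adjusted p = 0.0456). Sdha, the flavoprotein that oxidizes succinate, stood at 366 ± 13.2 against 348 ± 9.91 FPKM (edgeR adjusted p = 0.0369), and here the groups overlapped. The Sdhb to Sdha ratio was 0.955, 0.942, 0.963 and 0.949 with liraglutide, against 0.781, 0.868, 0.832 and 0.8 in the model group, with no overlap. These genes differ in length, at 1079 bases for Sdhb and 2859 for Sdha, and their log2 fold changes of 0.37 and 0.15 were 0.28 and 0.16 with a length offset, and 0.26 and 0.19 with length and GC content. The call of Sdhd ended without any 1 library (edgeR adjusted p up to 0.121) and that of Sdha without any library but liraglutide 1 (up to 0.102). With a length offset the calls of Sdhc and Sdhd ended (edgeR adjusted p = 0.0859 and 0.238) and those of Sdha and Sdhb did not (0.0403 and 0.00954). Under quantile normalization Sdha and Sdhd had negative log2 fold changes of -0.059 and -0.0095.

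Promoters are shown for Sdha, Sdhb, Sdhd, Idh3b and Idh3g, called genes of multi-subunit enzymes picked after the search because each window holds a match. Windows of other called genes, Suclg1 and Mdh2 among them, held none. The windows, from RefSeq on mouse build GRCm38.p6, run from 250 bases before to 50 after a transcription start, and 30 of the 33 genes had one. Capitals mark matches, on either strand, to CCGGAAG (the core bound by ETS factors such as GABPA), GCGCANGCG (a core of the NRF1 site) and TNAAGGTCA (the estrogen-related receptor element), which do not overlap one another in the 5 windows shown. These factors are known regulators of respiratory chain genes.
Sdha (chr13:74350191-74350490, minus strand): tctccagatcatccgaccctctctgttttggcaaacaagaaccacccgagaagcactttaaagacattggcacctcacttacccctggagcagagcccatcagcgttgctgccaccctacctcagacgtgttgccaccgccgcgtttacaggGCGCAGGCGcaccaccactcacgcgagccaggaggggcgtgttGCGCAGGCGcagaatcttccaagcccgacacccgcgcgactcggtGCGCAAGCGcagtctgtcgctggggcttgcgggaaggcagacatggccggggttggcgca
Sdhb (chr4:140961021-140961320, plus strand): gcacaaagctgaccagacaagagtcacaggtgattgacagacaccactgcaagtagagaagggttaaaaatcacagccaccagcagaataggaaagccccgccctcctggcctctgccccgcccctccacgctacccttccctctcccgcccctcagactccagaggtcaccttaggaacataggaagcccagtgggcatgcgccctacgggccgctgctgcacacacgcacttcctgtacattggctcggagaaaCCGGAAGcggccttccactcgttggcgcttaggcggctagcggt
Sdhd (chr9:50603800-50604099, minus strand): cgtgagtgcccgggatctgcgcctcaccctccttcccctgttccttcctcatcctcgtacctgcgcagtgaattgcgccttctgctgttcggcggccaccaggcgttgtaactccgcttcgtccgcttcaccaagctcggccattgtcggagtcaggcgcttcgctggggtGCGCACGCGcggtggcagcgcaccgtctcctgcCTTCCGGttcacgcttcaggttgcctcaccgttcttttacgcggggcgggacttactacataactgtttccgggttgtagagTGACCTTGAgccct
Idh3b (chr2:130284402-130284701, minus strand): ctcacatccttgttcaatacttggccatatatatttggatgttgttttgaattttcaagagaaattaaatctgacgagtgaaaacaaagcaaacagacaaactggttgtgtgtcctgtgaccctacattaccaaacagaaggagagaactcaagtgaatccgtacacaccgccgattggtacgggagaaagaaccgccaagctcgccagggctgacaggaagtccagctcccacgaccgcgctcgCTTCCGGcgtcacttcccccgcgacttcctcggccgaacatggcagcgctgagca
Idh3g (chrX:73786848-73787147, minus strand): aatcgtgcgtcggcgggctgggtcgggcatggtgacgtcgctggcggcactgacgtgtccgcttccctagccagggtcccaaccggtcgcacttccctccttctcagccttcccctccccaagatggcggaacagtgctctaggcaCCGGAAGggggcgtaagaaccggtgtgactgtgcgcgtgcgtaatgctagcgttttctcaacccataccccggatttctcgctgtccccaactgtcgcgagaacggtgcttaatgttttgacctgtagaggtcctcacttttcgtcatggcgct
The ETS core was in a window of 6 of the 30 genes (20%), against 9.93% of all 27025 genes with a window. These were Mpc1, Idh3b, Idh3g, Dlst, Sdhb and Sdhd, which are 6 of the 16 called genes with a window and 0 of the 14 not called. The NRF1 core was in 5 of the 30 (16.7%, against 7.03% of all), namely Ogdh, Sdha and Sdhd among called genes and Dld and Sucla2 among those not called. The Sdha window held it 3 times. The estrogen-related receptor element was in Sdhd alone (3.33%, against 1.43% of all). The end of the Sdhd window, downstream of the start, was found in no GENCODE M21 transcript of that gene, whereas those of the other 4 windows shown were. The end of the Dld window, which holds its NRF1 core, was likewise found in no GENCODE M21 transcript of Dld. These matches describe letters in a window and no binding was measured.

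The last steps of the cycle were higher as well. Fumarase, Fh1, had 135, 149, 138 and 141 FPKM with liraglutide, against 124, 127, 133 and 133 FPKM in the model group (log2 fold change 0.20 ± 0.045 SE, edgeR adjusted p = 0.0231). Its call ended without model 1 or model 2 (edgeR adjusted p up to 0.0718) and with a length offset (0.0722). Mdh2 (Entrez gene 17448), the mitochondrial malate dehydrogenase, was the most abundant cycle transcript of the 16. It had 685, 721, 679 and 676 FPKM with liraglutide, against 567, 563, 596 and 594 FPKM in the model group. All liraglutide libraries were above all model libraries (1.25-fold, edgeR log2 fold change 0.33 ± 0.038 SE, adjusted p = 0.0018).

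The malate-aspartate shuttle, which moves cytosolic reducing equivalents into the mitochondrion, had all 3 of its enzymes here higher, and in each the groups did not overlap. Mdh1, the cytosolic malate dehydrogenase, had 315, 331, 339 and 332 FPKM with liraglutide, against 282, 299, 310 and 311 FPKM in the model group (log2 fold change 0.21 ± 0.047 SE, edgeR adjusted p = 0.0225). Got1, the cytosolic aspartate aminotransferase, had 171, 173, 177 and 188 FPKM with liraglutide, against 160, 159, 162 and 160 FPKM in the model group (edgeR adjusted p = 0.0142). Got2, its mitochondrial counterpart, had 194, 192, 187 and 201 FPKM with liraglutide, against 175, 168, 186 and 182 FPKM in the model group (edgeR adjusted p = 0.0213). The ratio of cytosolic to mitochondrial malate dehydrogenase was 0.477 ± 0.021 with liraglutide and 0.518 ± 0.015 in the model group (SD, n = 4 each), with model 1 inside the liraglutide range. The calls of Mdh1 and Got2 ended without model 1 or model 2 (edgeR adjusted p up to 0.0639 and 0.0661). With a length offset the call of Mdh1 ended (edgeR adjusted p = 0.0667), and with length and GC content it held (0.0275). With a length and GC offset the calls of Got1 and Got2 ended (edgeR adjusted p = 0.0709 and 0.114).

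Gene length moved with these calls. The 11 called cycle enzymes had a median length of 1444 bases and the 5 not called 2976 bases, and over the 33 genes the medians were 1580 for those called and 3695 for those not called, against 3595 for all genes tested. Across genes, the deviation of a library correlated with log length at -0.161 to 0.016 with liraglutide and 0.025 to 0.15 for model mice. With GC content it correlated at 0.117 to 0.153 with liraglutide and -0.199 to -0.091 for model mice. With a length offset the median log2 fold change of the cycle enzymes was 0.16, against 0.20 without it and 0.032 over all genes tested with the offset, and 7 of the 16 were called. With length and GC content together it was 0.21, against 0.039 over all genes, and 9 of the 16 were called.

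**Figure D5:**
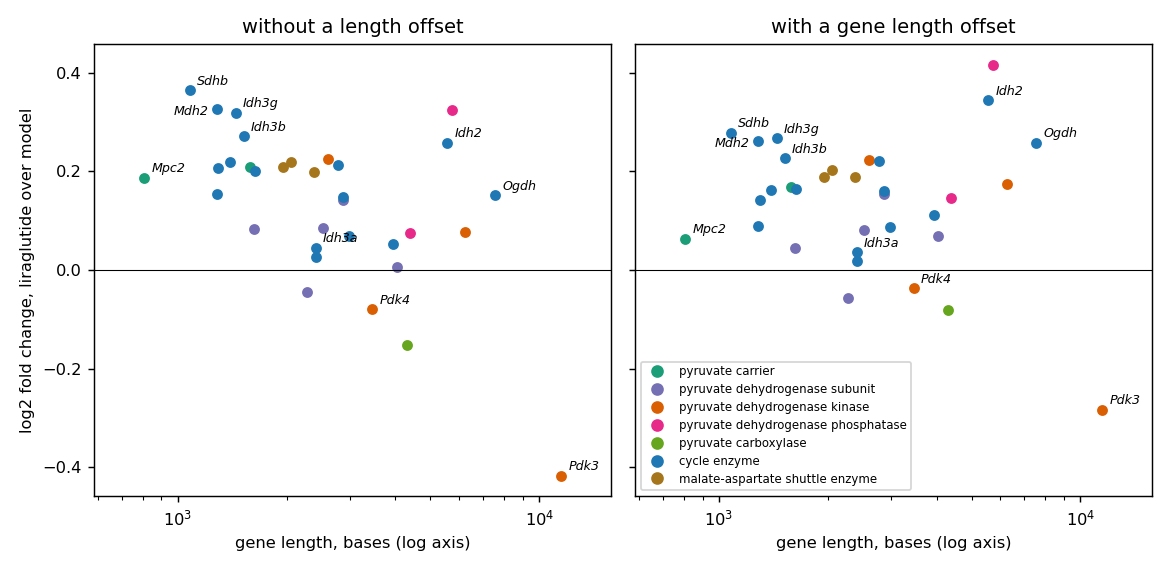
Log2 fold change of liraglutide over model against gene length on a log axis for the 33 genes, without a length offset (left) and with one (right), coloured by step. With the offset Sdhb is at 0.28 in place of 0.37 and Mpc2 at 0.063 in place of 0.19, while Ogdh is at 0.26 in place of 0.15.

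Genes that feed or drain the cycle, 36 in a list written from textbook knowledge with earlier results known, were also read: 5 rose, 4 fell and 27 did not pass, where 5.45% of all genes tested were higher and 4.83% lower. On log2(FPKM + 1), limma called 2 higher and 6 lower. The 2-oxoglutarate carrier of the shuttle, Slc25a11, rose (log2 fold change 0.27, edgeR adjusted p = 0.00582), and its call held on leaving out each library in turn. The lactate dehydrogenase genes Ldha and Ldhb rose (0.19 and 0.37, edgeR adjusted p = 0.0198 and 0.0312), as did the mitochondrial malic enzyme Me3 (0.21, 0.0343). Ldha was not called without model 1 or model 2, Ldhb without 5 of the 8 libraries in turn (up to 0.0908; kept without liraglutide 1, liraglutide 2 or model 3) and Me3 without 6 (up to 0.0955; kept without liraglutide 3 or model 3). Ldha, Ldhb and Me3 were also not called with raw library sizes or by limma on FPKM, and Ldha changed sign in 1 alternative. The Ldhb call ended with a length offset, alone or with GC content, and that of Slc25a11 under quantile normalization. The mitochondrial citrate carrier Slc25a1 fell, at 5.09 ± 0.838 FPKM with liraglutide against 13.9 ± 3.65 FPKM in the model group (SD, n = 4, edgeR adjusted p = 0.00293). The dicarboxylate carrier Slc25a10 fell too, at 1.97 ± 0.729 against 4.95 ± 1.09 FPKM (edgeR adjusted p = 0.0105). The cytosolic isocitrate dehydrogenase Idh1 fell, at 8.15 ± 0.585 against 12 ± 0.38 FPKM (edgeR adjusted p = 0.00283), and so did ATP-citrate lyase Acly, which splits exported citrate for fat synthesis, at 3.36 ± 0.243 against 4.8 ± 0.713 FPKM (edgeR adjusted p = 0.0255). Leaving out liraglutide 2, liraglutide 3, model 1 or model 4 ended the Acly call (largest adjusted p 0.0756), and the calls of the other 3 held. The Acly call also ended with a length offset, alone or with GC content, and under quantile normalization. These 4 genes are also abundant in fat, whose markers were lower as given above, and that part was not tested.

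Of 21 genes of the fasting and PPAR response, a programme that includes Pdk4, 3 rose, 5 fell and 13 did not pass, or 3 of 21 and 5 of 21 where 5.45% of all genes tested were higher and 4.83% lower. On log2(FPKM + 1), limma called 0 higher and 5 lower. The fatty acid transporter gene Cd36 fell, at 132 ± 16 FPKM with liraglutide against 203 ± 17.2 FPKM in the model group (SD, n = 4, edgeR adjusted p = 0.00798). Lpl, which releases fatty acids from lipoproteins, fell as well, at 209 ± 26.5 against 315 ± 26.2 FPKM (edgeR adjusted p = 0.0111). Plin2, Cpt1a and the ubiquitin ligase gene Fbxo32 had log2 fold changes of -0.49, -0.30 and -0.49 (edgeR adjusted p = 0.0293, 0.0213 and 0.0303). Cpt1b, Mlycd and the nuclear receptor gene Esrra rose, with log2 fold changes of 0.19, 0.29 and 0.27 (edgeR adjusted p = 0.0449, 0.0443 and 0.0456), and each call ended on leaving out 6 of the 8 libraries in turn (up to 0.12). Each also ended with a length and GC offset (edgeR adjusted p = 0.193, 0.19 and 0.0689), with raw library sizes and in limma. The calls of Cd36 and Lpl held on leaving out each library in turn and ended with a length and GC offset (edgeR adjusted p = 0.0706 and 0.0584). The calls of Plin2, Cpt1a and Fbxo32 ended on leaving out 5, 2 and 6 of the 8 (edgeR adjusted p up to 0.0814, 0.0527 and 0.0816). With a length and GC offset Plin2 was called (edgeR adjusted p = 0.0385), and Cpt1a and Fbxo32 were not (0.061 and 0.102). Cd36, Lpl and Plin2 are expressed in fat as well as in muscle. Angptl4, a further fasting-responsive gene, stood at 26 ± 4.99 FPKM with liraglutide and 37.9 ± 7.76 FPKM in the model group without a call (edgeR adjusted p = 0.106). Ppard, of the same list, went the other way and was nearer a call, at 11.2 ± 1.72 against 9.29 ± 0.349 FPKM (edgeR adjusted p = 0.0652).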

How the data were processed

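Stranded libraries of polyadenylated RNA were made from TRIzol-extracted muscle RNA, per the labels' protocols. The authors deposited 1 table with a raw count and an FPKM value per gene and library, per the file headers. Tools listed by the submitters' processing notes, with no version, are HTSeq, HISAT2, Trimmomatic, DESeq and Cufflinks. The notes list the human build GRCh38, although the genes are mouse genes, so the build is uncertain. A misspelt column name was assigned by its animal code. The deposited FPKM equalled count over library total and a whole-number length, within 0.01 base, for 17484 of 17484 genes with a count; these lengths were used. Counts were tested in edgeR 4.0.16 (R 4.3.3) with TMM, filterByExpr (minimum count 10), the quasi-likelihood test and Benjamini-Hochberg adjustment over 12963 genes. Fold changes are liraglutide over model. Alternatives used other scalings and filters, DESeq2 1.42.0, limma 3.58.1 on log2(FPKM + 1) or log2(FPKM + 0.1), offsets (loess, span 0.5) for length, and for length with GC content (GENCODE M21 transcripts, 98.3% of genes), a block, and omissions. The test was checked on simulated counts. Genes and lists were chosen with earlier results of these data known, as was the omission of liraglutide 2 with model 3, added later. All 33 genes are named, with every library's value for carriers, kinases and up to 3 called genes per step, and for other genes where subunits are compared, which were picked after values were seen. Replicates carry separate animal codes. In the list of 36 other pathway genes, 1 gene is counted and its own result is not reported here. Myh2, a fast fibre myosin, was taken out of the slow fibre markers after their values were seen.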

Additional observations from a re-analysis of the deposited data

Results flagged for a closer look

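In 66 groups of 4 libraries (33 genes in 2 groups), 3 held a library that stood apart from the other 3 by more than Dixon's critical value of 0.829, and chance alone gives about 1 in 20. Mpc2 was at 166 FPKM in liraglutide 3, against 175 to 177 FPKM in the other liraglutide libraries. Sdhd was at 188 FPKM in liraglutide 2, against 175 to 177 FPKM in the others. Sdha was at 333 FPKM in model 2, against 352 to 354 FPKM in the others.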

How the results depend on the processing

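The number of genes called higher, 17, was 15 to 18 with RLE or upper quartile scaling, DESeq2, a robust fit or no low-count filter. It was 5 with raw library sizes, 10 with a length offset, 11 with a length and GC offset, 8 and 7 with limma on log2(FPKM + 1) and log2(FPKM + 0.1), 2 under quantile normalization, and 10 without liraglutide 2 and model 3. Leaving out 1 library gave 8 (without model 1) to 15. The number called lower, 0, was 1 with raw library sizes and with limma at either pseudocount, and 2 under quantile normalization. Over all genes tested, the number called in either direction, 1333, was 1579 with raw library sizes. It was 906 with a length offset and 551 with a length and GC offset. With limma it was 1408 and 1365 at pseudocounts 1 and 0.1, and 776 under quantile normalization. Medians of log2 fold changes with raw library sizes, limma at pseudocounts 1 and 0.1, and quantile normalization were 0.128, 0.128, 0.128 and 0.0415 for cycle enzymes, 0.122, 0.122, 0.123 and 0.0615 for carriers, and 0.00617, 0.00788, 0.00794 and -0.0579 for pyruvate dehydrogenase subunits. With the length offset they were 0.164 for cycle enzymes and 0.116 for carriers, and the kinase median, -0.00097, was 0.088 with length and GC. Cs, Ogdh, Sdha and Sdhd turned to -0.134, -0.0131, -0.0589 and -0.00945 under quantile normalization. The causes were not tested. Same-numbered libraries had correlations of deviations of -0.0275 to 0.149, not all above 0.1, and not every library correlated best with its own number; with the replicate number as a block 13 genes were called higher and 0 lower. Of the 17 calls, 8 held on leaving out each library in turn. At 4 libraries a group, intervals of lowly expressed genes (Pdk3, Pdp2) were wide.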
